A study of Nicotiana benthamiana with 9 samples.

Results

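Leaves of Nicotiana benthamiana that expressed the silencing suppressor P19 and no RNA editing factor supplied 3 of the 9 RNA-seq libraries of a study of a designed plastid editor. They were chosen by their labels, and every one of the 105 plastid gene rows counted in them is described here, 80 of them protein-coding, 21 tRNA and 4 rRNA. The plants were wild type, and the P19 construct was expressed transiently in the leaf. P19 is a viral protein that binds small RNAs and thereby limits silencing of introduced genes. Every group of the study carried it, so these libraries show infiltrated leaves with P19 and not untouched leaves. Replicate 1 was labelled 2 days post infiltration (dpi) and replicates 2 and 3 were labelled 3 dpi, while 3 dpi is given for every library in the series text. Ribosomal RNA was depleted before strand-marked (dUTP) libraries were made, per the labels' protocols. The 106th row of the table, an editor transgene, is left out of all totals.

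Plastids of land plants keep a small circular genome, most of it transcribed as long RNAs that cover several genes and are cut and trimmed afterwards. One polymerase, whose core subunits are encoded by the plastid rpo genes, transcribes mainly photosynthesis genes, and a polymerase encoded in the nucleus transcribes mainly housekeeping genes. Because many genes share a precursor, the steady level of an RNA depends on its cutting and on its decay as well as on its promoter.

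The libraries held 34963332, 35293884 and 37057779 counts on plastid genes (replicates 1 to 3). At that depth the widest 95% Wilson interval of any gene's share of counts in 1 library was 0.0329 percentage points, that of psbA. Intervals cover counting error only. Levels are given as RPKM, counts per kilobase of the gene row per 1000000 plastid counts of the same library. Nuclear genes were not analysed here, so RPKM compares plastid genes with each other and says nothing of the amount of plastid RNA in the leaf. All statements describe the 3 libraries. No groups were compared and no test was made. No source says that the libraries came from separate plants, though the series text calls them biological replicates.

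Replicate 1 stood furthest from the others, and replicate 3 lay between replicates 1 and 2. Across the 105 genes, Pearson's r of log2 RPKM was 0.962 between replicates 1 and 2, 0.983 between replicates 1 and 3 and 0.989 between replicates 2 and 3. The median gene differed by 0.69 on the log2 scale between replicates 1 and 2, by 0.46 between 1 and 3 and by 0.28 between 2 and 3. Replicate 1 is also the one labelled 2 dpi and the one from lane 8 (the others are from lane 4, per the column names). Day, lane and leaf therefore cannot be told apart.

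A handful of transcripts made up most of the plastid counts. The psbA gene, for the D1 protein of photosystem II, which is damaged by light and replaced continually, took 61.1%, 47.2% and 52.6% of counts in replicates 1 to 3. The rbcL gene, for the large subunit of the carbon-fixing enzyme Rubisco, took 10.4%, 15.4% and 13.1%. These libraries therefore differed in how far psbA outweighed rbcL, whose RPKM was exceeded 7.90, 4.13 and 5.44 times. The 10 largest gene rows together took 88.0%, 84.3% and 85.4%. They include the rps12 row (8.76%, 12.3% and 11.1%), which spans other genes and cannot be read as a level of rps12.

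Photosynthesis genes, meaning the photosystems, the cytochrome b6f complex, the ATP synthase and rbcL, took 82.7% ± 3.9 of counts (SD, n = 3) with 33 of the 80 protein-coding genes. The 14 photosystem II genes other than psbA held 9.52%, 9.79% and 9.51%. This near-equal share rests on a total that includes psbA, and with psbA left out of the total it was 21.0% ± 3.08 (SD, n = 3). Photosystem I genes held 2.52% ± 0.465, cytochrome b6f genes 2.19% ± 0.149 and ATP synthase genes 1.78% ± 0.339. The 11 genes of the NDH complex, which returns electrons around photosystem I, held 1.38% ± 0.288. Ribosomal protein genes without rps12 held 1.25% ± 0.427 and the 4 RNA polymerase genes 0.257% ± 0.140 (SD, n = 3 for each).

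**Figure D1:**
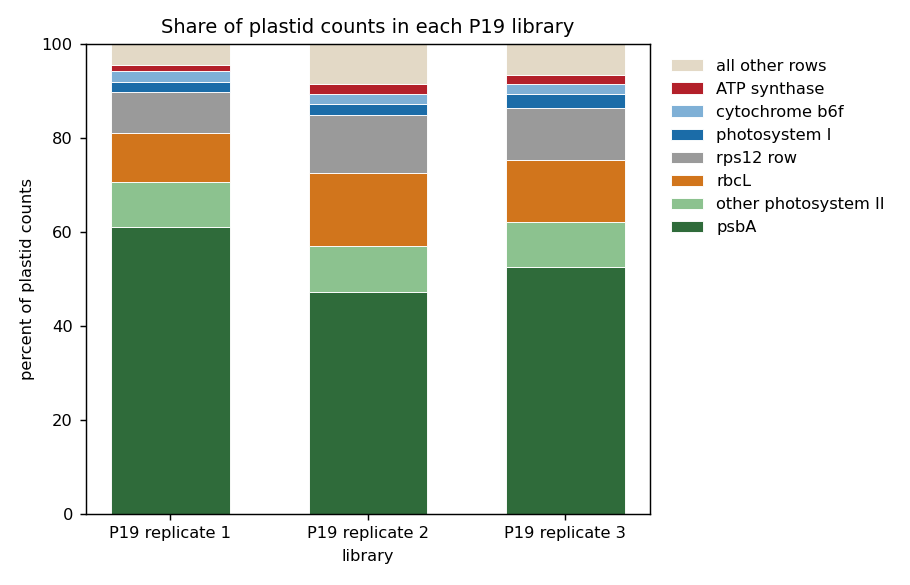
Stacked bars of the percent of plastid counts (y axis, 0 to 100) taken by psbA, other gene groups and the rps12 row in each P19 library (x axis). The psbA share was 61.1% in replicate 1, against 47.2% and 52.6% in replicates 2 and 3, while the other photosystem II genes took 9.51% to 9.79%.

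Some gene rows do not measure what their name says. The rps12 gene, for a small-subunit protein of the ribosome, is read from 2 distant pieces joined by trans-splicing, and its row runs over 70359 bases (71935 to 142293, plus strand, in the coordinates of the deposited table, which names no build). It held 8.76%, 12.3% and 11.1% of counts. It contains 37 other rows, of which 9 lie on its strand, and its counts were 2.67, 3.63 and 3.13 times the sum of those 9. Within its span no row starts in the 25414 bases between rps19 and ndhF, a stretch that the plus-strand rps12 row covers. Its value is a sum over that span and cannot be read as a level of rps12.

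The trnK row, for the lysine tRNA, contains matK, the gene of a splicing factor that lies in the trnK intron. Per kilobase trnK stood at 2309, 5721 and 4059 RPKM and matK at 2491, 6771 and 4626 RPKM. The counts left on trnK after subtracting those of matK gave 2042, 4180 and 3228 RPKM over the remaining bases; the row is 2573 bases long, far longer than a tRNA, so its value cannot be read as a level of the mature tRNA. Lying wholly inside trnK on its strand, matK still held 133268, 365620 and 262266 counts, so reads shared by both rows were not all dropped. Whether each was counted in full on both rows was not stated in the labels or headers. Reads counted on both rows, here or within the rps12 span, would enter the plastid total more than once.

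The 4 rRNA genes, the most abundant RNAs of a plastid before depletion, held 0.0890%, 0.0603% and 0.0615% of counts. The 23S rRNA row rrn23 had 241, 152 and 157 RPKM and the 16S row rrn16 139, 112 and 107 RPKM. The short rrn4.5 had 39.2, 43.5 and 107 RPKM, and rrn5 only 38, 88 and 46 counts (95% Poisson intervals 26.9 to 52.2, 70.6 to 108 and 33.7 to 61.4 counts). Because rRNA was depleted, these values cannot be set among those of the other genes.

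Levels of protein-coding genes spanned a 3832-fold range between psbA and rpoB, and a 705-fold range without psbA. All of the 20 highest were photosynthesis genes. None of the 20 lowest was one: 9 encode ribosomal proteins, 3 RNA polymerase subunits, 3 NDH subunits and 5 other proteins. Of all 80 protein-coding genes, 33 are photosynthesis genes, 21 encode ribosomal proteins, 4 RNA polymerase subunits, 11 NDH subunits and 11 other proteins. The share of NDH genes among the 20 lowest was thus near their share of all genes. The first gene outside photosynthesis was rps14, at rank 23. Ranges over the 3 libraries of neighbours in this order overlapped in 76 of 79 cases. The steps without overlap lay between psbA and rbcL, between psbF and psbM, and between psbD and psbN. The last of these is no full break, because the lowest psbD value (9284 RPKM) was below the highest psbZ value (9634 RPKM). The order is thus loose between close ranks, and ranges of ranks further apart were not counted.

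**Figure D2:**
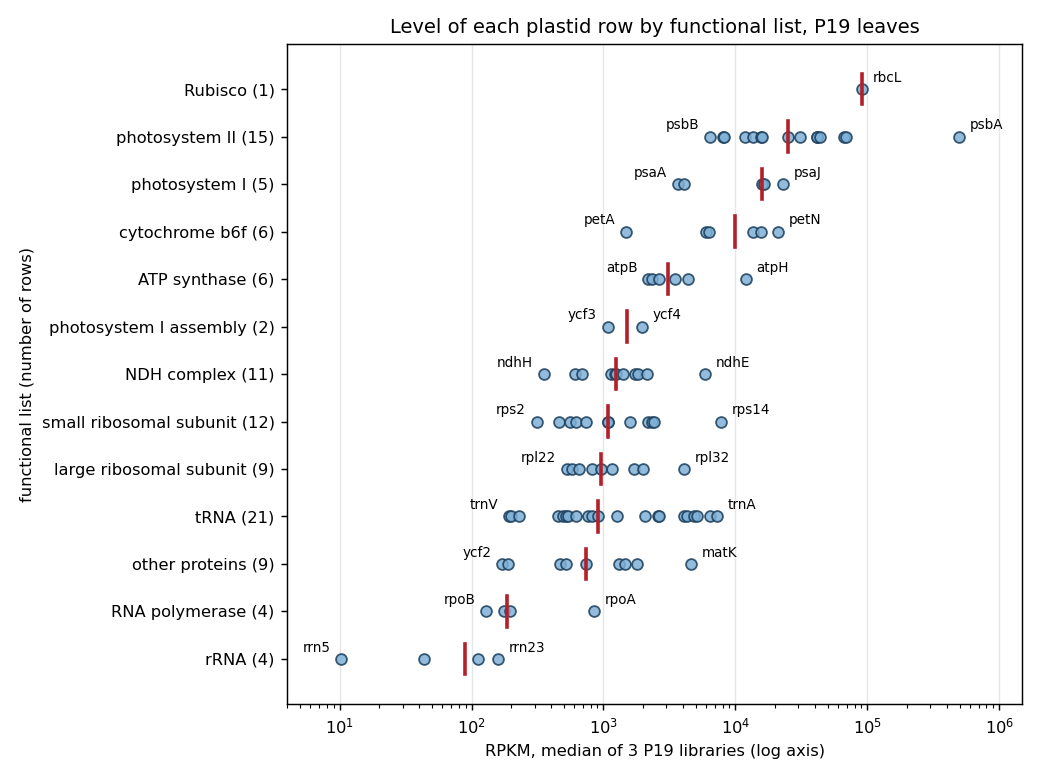
Each dot is 1 gene row at its median RPKM over the 3 P19 libraries (x axis, log scale), by functional list (y axis, number of rows in brackets), with the list median as a red bar and the highest and lowest member named. Medians of the photosynthesis lists lie to the right of those of the NDH complex, the ribosome and the RNA polymerase. Single genes of these lists overlap, with rps14 (7725 RPKM) and ndhE (5849 RPKM) above petA (1476 RPKM). The psbA gene at 495617 RPKM stands alone.

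The order of the lists by their median member was nearly the same in each library. Photosystem II came after rbcL, with a list median of 28409 ± 7894 RPKM, followed by photosystem I at 16312 ± 1672, cytochrome b6f at 10160 ± 986 and the ATP synthase at 3180 ± 487 RPKM. Far below were the NDH complex at 1147 ± 319, the small ribosomal subunit without rps12 at 1046 ± 397, the large subunit at 869 ± 363 and the RNA polymerase at 190 ± 131 RPKM (SD, n = 3 for each). The first 6 lists, with photosystem I assembly as the sixth, kept their places in all 3 libraries and also on a second length scale.

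That scale matters because many of the highest genes are very short. A read that touches a gene row by 1 base is commonly counted, so short rows can collect reads from flanking RNA. If reads were 150 bases long, an assumption that the labels do not state, a row would collect reads over its length plus the read length less 1 base, and 35 of the 105 rows are shorter than such a read. On this overlap scale 9 of the 10 highest protein-coding genes remained, psbC replacing psaJ. Spearman's rho between gene length and RPKM across the 80 protein-coding genes was -0.522, and on the overlap scale it was -0.411.

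Within photosystem II the highest genes after psbA were short ones. The psbL gene, for a small subunit, had 80106, 63576 and 68637 RPKM, and psbF, for a subunit of cytochrome b559, had 78966, 61504 and 66685 RPKM. The reaction centre gene psbD, for the D2 protein, had 9284, 14264 and 11728 RPKM. The antenna gene psbC, for CP43, had 12990, 17655 and 15676 RPKM, and psbB, for CP47, had 5129, 6473 and 6562 RPKM. Thus psbA, whose protein pairs with D2 at equal numbers in the complex, exceeded psbD 62.0, 31.2 and 42.3 times per kilobase. The lowest photosystem II gene by row length was psbB, and on the overlap scale it was psbN.

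Photosystem I showed the same split by size. The genes of the large core proteins, psaA at 2020, 3684 and 4540 RPKM and psaB at 2233, 4094 and 4891 RPKM, were the lowest of the complex. The gene psaC, for the subunit that carries terminal iron-sulfur clusters, had 18174, 14940 and 15821 RPKM. The small-subunit gene psaJ had 31633, 19484 and 23026 RPKM and psaI 20910, 15342 and 16379 RPKM. For these small-subunit genes replicate 1 was the highest library, while for psaA and psaB it was the lowest, and on the overlap scale psaC still exceeded psaA 3.66 ± 2.01 times and psaJ 4.40 ± 3.07 times (SD, n = 3). Replicate 1 had the largest ratios: by RPKM psaJ exceeded psaA 15.7 times there, against 5.29 and 5.07 times in replicates 2 and 3, and without replicate 1 psaC exceeded psaA 4.06 and 3.48 times.

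In the cytochrome b6f complex petN, for a very small subunit, was highest at 34413, 17890 and 21153 RPKM. The lowest was petA, for cytochrome f, at 908, 1847 and 1476 RPKM, and petB, for cytochrome b6, stood between them at 15935, 14032 and 15692 RPKM. The complex thus held genes whose medians differed 14.3-fold. On the overlap scale petN came after petB and petD, with 9221 ± 3295 RPKM, against 12367 ± 842 and 10547 ± 494 RPKM (SD, n = 3). In the ATP synthase atpH, for the membrane ring subunit present in many copies per enzyme, was highest at 10261, 14423 and 11952 RPKM. The catalytic subunit gene atpB had 1492, 2193 and 2308 RPKM and atpA, for its partner subunit, 1390, 3420 and 2657 RPKM.

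The NDH genes ran from ndhE, at 5887, 5849 and 5401 RPKM, down to ndhH, at 170, 443 and 354 RPKM, a 16.5-fold span of medians. Ribosomal protein genes ran from rps14 (5330, 7725 and 9592 RPKM) and rpl32 (4515, 4046 and 3617 RPKM) down to rps2 (156, 388 and 311 RPKM). The highest ribosomal protein gene, rps14, lies directly behind psaA and psaB.

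The scarcest protein-coding gene was rpoB, for a core subunit of the plastid RNA polymerase, at 49.1, 182 and 129 RPKM. Its partners rpoC1 at 57.7, 370 and 197 RPKM and rpoC2 at 64.2, 275 and 177 RPKM were near it, while rpoA, in another cluster, had 585, 1192 and 844 RPKM. Per kilobase rpoA exceeded rpoB 11.9, 6.53 and 6.53 times, although their proteins belong to the same core enzyme. Also among the 10 lowest were ycf2 (73.5, 311 and 171 RPKM) and ycf1 (137, 203 and 188 RPKM), large essential genes tied to protein import, and accD, for a subunit of acetyl-CoA carboxylase in fatty acid synthesis, at 295, 630 and 467 RPKM. The protease gene clpP1 had 430, 694 and 520 RPKM. The ycf2 row lies in the inverted repeat, a duplicated stretch of the genome, and how reads matching both copies were counted was not given. Together the 7 genes known to be transcribed mainly by the nuclear-encoded polymerase held 0.578% ± 0.262 of counts (SD, n = 3), with a list median of 191 ± 119 RPKM.

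The remaining members of the 10 lowest were rpoC1, rpoC2, rps2, ndhH and rps19, the last at 158, 655 and 458 RPKM. On the overlap scale accD and clpP1 leave the 10 lowest, and rpl22 and rps15 join them.

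Among tRNAs, the 782-base trnA row, which includes the intron of the alanine tRNA gene, was highest at 4315, 8898 and 7232 RPKM. Next came trnP at 7701, 3954 and 6419 RPKM and trnD at 4946, 5149 and 5718 RPKM. The lowest were trnV at 145, 313 and 193 RPKM, the initiator trnfM at 163, 236 and 198 RPKM and trnL at 126, 315 and 228 RPKM. The trnA, trnV and trnL rows lie in the inverted repeat, so their levels carry the limit given for ycf2. The tRNA rows took 1.83% ± 0.625 of counts, but only 0.261% ± 0.012 without trnA and trnK (SD, n = 3), so most tRNA counts lay on these long rows. Mature tRNAs are short, folded and modified, and standard RNA-seq libraries capture them poorly.

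Neighbouring genes on the same strand more often had similar levels than neighbours on opposite strands in these libraries. Of 52 same-strand pairs of adjacent rows that did not overlap and lay at most 500 bases apart, 31 (59.6%) differed by no more than 2-fold, with a median fold of 1.72. Of 15 opposite-strand pairs, 5 (33.3%) did, with a median of 3.42-fold. Over every pair of rows the share within 2-fold was 21.7% and the median fold 5.35. The same-strand pairs include depleted rRNA rows and trnK. With protein-coding genes alone the shares were 67.6% of 37 same-strand pairs and 37.5% of 8 opposite-strand pairs. These pairs are not independent of each other, many share a transcript or a row, and no test was made of the difference.

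**Figure D3:**
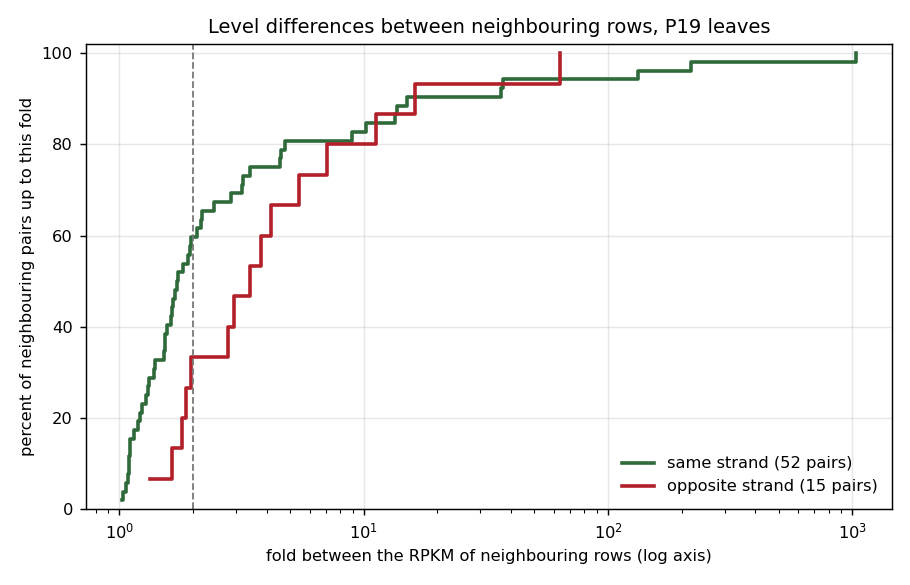
Cumulative percent of neighbouring gene pairs (y axis) whose RPKM ratio, as geometric mean over libraries, is up to the fold on the x axis (log scale). Curves are for 52 same-strand and 15 opposite-strand pairs, with 2-fold as a dashed line. At 2-fold the same-strand curve is at 59.6% and the opposite-strand curve at 33.3%.

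The ratio of same-strand neighbours varied less between libraries, in the median, than that of other pairs. The SD of the log2 ratio over the 3 libraries had a median of 0.16 for same-strand pairs, 0.23 for opposite-strand pairs and 0.46 over every pair of rows. Single same-strand pairs ranged from an SD of 0.010 to 1.16, the latter for rrn5 and rrn4.5, depleted rRNAs with few counts. The pairs of psbA and trnK (0.85) and of psaI and ycf4 (0.84) were also among the least steady. Among the steadiest, the psbF to psbE ratio (RPKM) was 1.65, 1.63 and 1.62 and that of psbT to psbB 2.42, 2.46 and 2.41. For psaA to psaB it was 0.905, 0.900 and 0.928, although the level of psaA itself differed 2.25-fold between libraries. These pairs thus kept their proportions while their levels differed between libraries. The gaps were 9 bases for psbF and psbE, 25 for psaB and psaA and 200 for psbB and psbT. A read that touches both rows of a close pair may be counted on each. How far such reads contribute to steady ratios was not tested.

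The psbB cluster holds photosystem II genes psbB, psbT and psbH followed by the cytochrome genes petB and petD (74661 to 79975, plus strand). Its members differed 2.44-fold in median RPKM, with psbB lowest and psbT highest. On the overlap scale psbT stood at 1.10 ± 0.013 times psbB (SD, n = 3), against 2.43 ± 0.028 times by row length, and petB became the highest. Between psbT and psbH lies psbN on the minus strand, for a photosystem II assembly factor. It had 5407, 8262 and 9200 RPKM, 0.436, 0.519 and 0.582 times psbT, and without the strand setting of the counting, which no label or header states, its reads cannot be told from those of the strand across it.

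The psbD-psbC-psbZ and psbE-psbF-psbL-psbJ clusters spanned 1.95-fold and 1.67-fold between their highest and lowest members. On the overlap scale the first spanned 3.16-fold and the second 1.60-fold. In the psbE cluster psbL exceeded psbJ 1.66 ± 0.037 times and psbF exceeded psbE 1.63 ± 0.016 times (SD, n = 3), of which the second was 1.16 ± 0.011 times on the overlap scale. The psbK and psbI pair, for small photosystem II subunits, changed its order with the scale: psbI exceeded psbK 1.19 ± 0.036 times by row length and stood at 0.919 ± 0.028 times on the overlap scale.

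**Figure D4:**
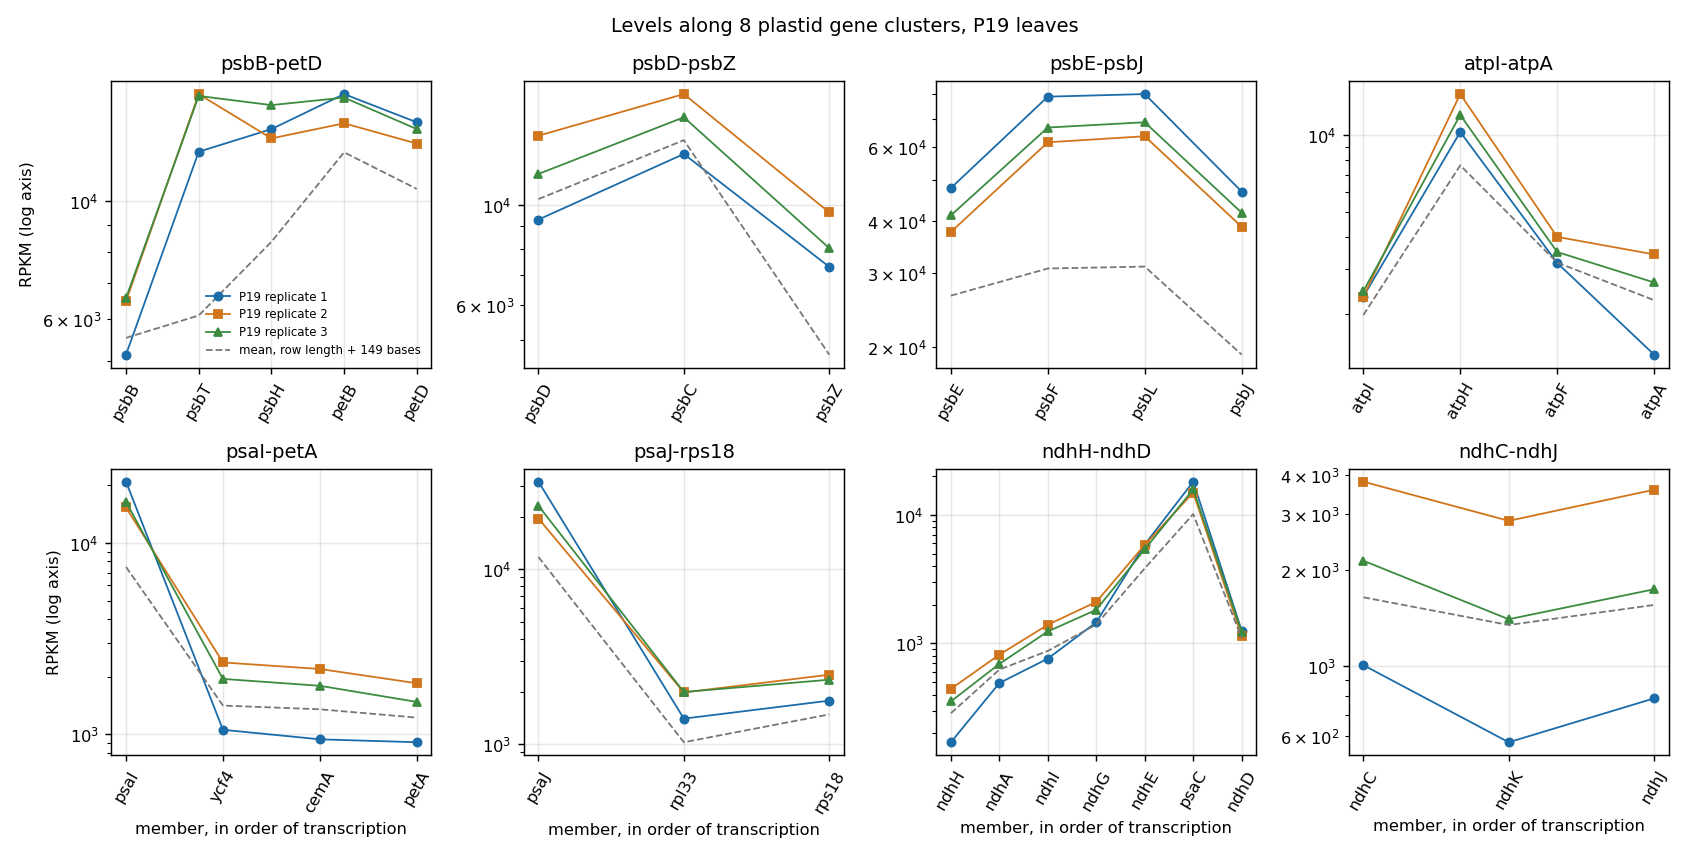
RPKM (y axis, log scale, own range in each panel) of the members of 8 plastid gene clusters in order of transcription (x axis) in P19 replicates 1 to 3, with the 3-library mean on the overlap scale dashed. Levels step down after psaI and psaJ and increase from ndhH to psaC, and replicate 1 is the lowest library for all 3 genes from ndhC to ndhJ.

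Other clusters held steep internal steps. In psaI-ycf4-cemA-petA the photosystem I gene psaI exceeded the next gene, ycf4, for a photosystem I assembly factor, 19.8, 6.46 and 8.42 times. The genes ycf4, cemA (an envelope membrane protein) and petA then lay close together, with petA at 0.965, 0.842 and 0.824 times cemA. In the same way psaJ exceeded rpl33, for a large-subunit ribosomal protein, 22.5, 9.84 and 11.6 times, while the following rps18 was at 1.27, 1.26 and 1.18 times rpl33. On the overlap scale the steps were 6.26 ± 3.90 and 12.1 ± 5.70 times (SD, n = 3). Replicate 1 had the largest step in each case, and on that scale replicates 2 and 3 gave 3.50 and 4.56 times for psaI over ycf4 and 8.14 and 9.57 times for psaJ over rpl33.

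The ndhH to ndhD cluster (117242 to 124836, minus strand) increased along the direction of transcription up to psaC. Medians of RPKM were 354 for ndhH, 693 for ndhA, 1240 for ndhI, 1827 for ndhG, 5849 for ndhE and 15821 for psaC. The last gene, ndhD, had 1257, 1143 and 1231 RPKM, so that psaC exceeded it 14.5, 13.1 and 12.9 times. The photosystem I gene in this cluster was thus far above every NDH gene around it, and on the overlap scale still 9.21 ± 0.594 times ndhD (SD, n = 3).

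In the ATP synthase cluster atpI-atpH-atpF-atpA (10555 to 15935, minus strand) atpH stood above both sides, at 5.37 ± 1.75 times atpA (SD, n = 3). Upstream of the cluster rps2, for a ribosomal protein, was far lower than atpI, which exceeded it 15.0, 6.04 and 7.91 times. In the second ATP synthase cluster atpE, whose start overlaps the end of atpB by 4 bases, exceeded atpB 2.33, 2.00 and 2.19 times, and 1.74 ± 0.130 times on the overlap scale (SD, n = 3).

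The ribosomal protein cluster from rpl23 to rpoA was low throughout. The 12 medians lay between 458 RPKM for rps19 and 1694 RPKM for rpl36, a 3.70-fold span. Its first genes rpl23 and rpl2 are listed on the plus strand (153804 to 155605), far from the others, because genes of the inverted repeat are listed once. How reads matching both copies of the repeat were counted was not given, so the levels of rpl23 and rpl2 carry that limit. The large-subunit gene rpl2 had 322, 850 and 656 RPKM. The rpl23 to rpl2 ratio was 1.37, 1.39 and 1.45 by row length, and on the overlap scale it lay between 0.985 and 1.04.

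The widest step between neighbours lay at psbA. By the geometric mean over libraries psbA stood 1034-fold above trnH on one side and 133-fold above trnK on the other, both on its strand. In the depleted rRNA cluster trnA, between rrn16 and rrn23, had a median of 7232 RPKM, against 112 and 157 RPKM for these rRNAs.

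Genes differed widely in how stable they were between the 3 libraries. The highest library exceeded the lowest by a median of 1.65 times over the 105 genes, and by more than 2-fold for 43 of them. By plastid total the steadiest were atpI (1.05 times), ndhF (1.06), ndhE (1.09), petD (1.10) and ndhD (1.10). These genes varied 1.53 to 1.68 times with TMM factors, a scaling by the bulk of genes, under which ycf1 (1.06 times), psbD (1.06) and rbcL (1.07) were the steadiest. Among the least steady were rpoC1 (6.41 times), trnF (5.78), ndhK (4.99), rpl22 (4.62), ndhJ (4.55), rpoC2 (4.28), ycf2 (4.23) and rps19 (4.16) by plastid total, and with TMM factors rpoC1 (4.19 times) and trnF (3.78) were still the highest. Without replicate 1 the median was 1.21 times and 5 genes exceeded 2-fold, namely trnF, ndhJ, ndhK, rrn4.5 and rrn5. Leaving out replicate 2 gave 22 such genes and leaving out replicate 3 gave 40.

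The RNA polymerase had the largest share of genes over 2-fold under each scaling, while the order of the other complexes depended on the scaling. By plastid total all 4 RNA polymerase genes, 8 of 12 small-subunit and 6 of 9 large-subunit ribosomal protein genes and 0 of 15 photosystem II genes varied more than 2-fold. With TMM factors the numbers were 3 of 4, 3 of 12, 3 of 9 and 2 of 15, and 26 genes in all instead of 43. The ndhC-ndhK-ndhJ cluster, for 3 subunits of the NDH complex, had 1004, 3804 and 2142 RPKM for ndhC. For ndhK the values were 573, 2862 and 1401 RPKM. In contrast ndhF had 616, 582 and 609 RPKM. With TMM factors ndhF and ndhD were higher in replicate 1, by 0.56 and 0.60 on the log2 scale, and ndhC and ndhK lower, at -0.99 and -1.29.

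Deviations of replicate 1 ran in opposite directions. Relative to the mean of replicates 2 and 3 the median gene was at -0.48 on the log2 scale, and 79 of 105 genes were lower, in a library where psbA also took a larger share. With TMM factors the median was 0.03 and 50 of 105 were lower. Lower under either scaling were rpoC1 (-2.23, and -1.71 with TMM), rpl22 (-1.95 and -1.43), ndhK (-1.80 and -1.29), ycf2 (-1.65 and -1.14) and psaA (-1.02 and -0.50). Higher under either were petN (0.82 and 1.34), psbK (0.65 and 1.16), psaJ (0.58 and 1.09) and psbA (0.29 and 0.81). The sign of rbcL turned with the scaling (-0.44 and 0.07), as did that of atpI (-0.04 and 0.48).

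**Figure D5:**
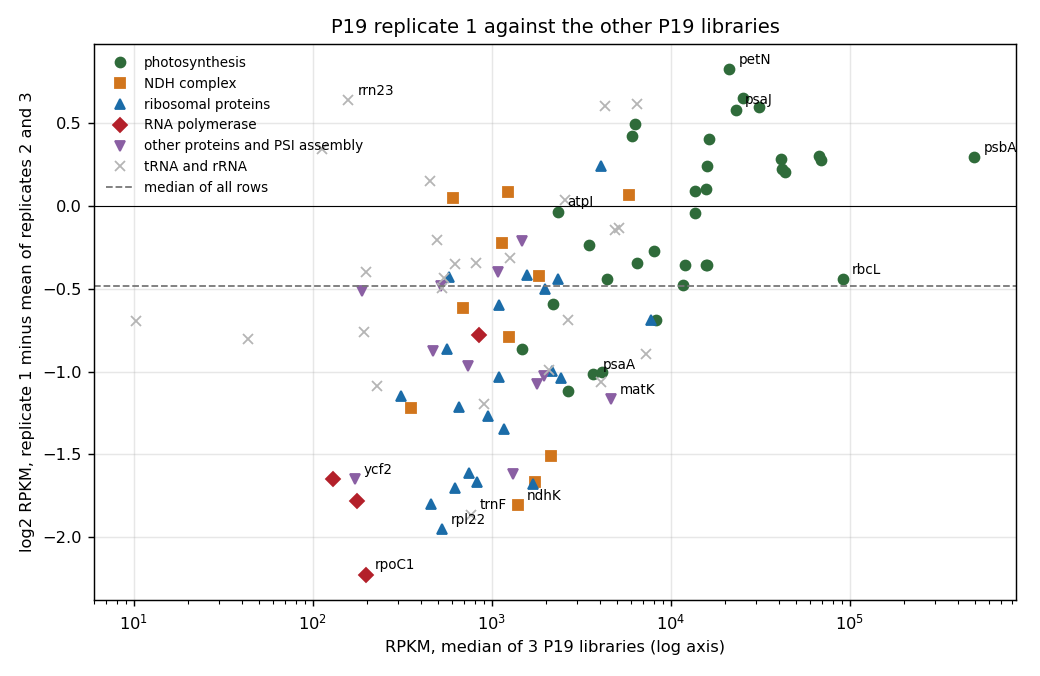
Difference in log2 RPKM between P19 replicate 1 and the mean of replicates 2 and 3 (y axis) against the median RPKM of each gene (x axis, log scale), by gene group. Photosynthesis genes lie on both sides of 0, from petN at 0.82 to atpA at -1.12, and all RNA polymerase genes lie below it, down to rpoC1 at -2.23, with the median of all 105 rows (-0.48) dashed.

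Genes that were abundant elsewhere were relatively more abundant in replicate 1. Spearman's rho between a gene's RPKM in replicate 3 and its log2 ratio of replicate 1 to replicate 2 was 0.724 across the 80 protein-coding genes, which share libraries and are not independent. Between the level in replicate 2 and the log2 ratio of replicate 1 to replicate 3 it was 0.625. A relation with level also ran between the other libraries, with a rho of -0.641 between the median level and the log2 ratio of replicate 2 to replicate 3, though there the level and the ratio share libraries. Photosystem II genes were higher in replicate 1 for 8 of 15 members, and for 14 of 15 with TMM factors. RNA polymerase genes were lower for 4 of 4 under each of these scalings.

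Neighbours often had similar deviations, but some clusters split. Between protein-coding neighbours the deviation differed by a median of 0.18 on the log2 scale in 37 same-strand pairs and 0.34 in 8 opposite-strand pairs. No scaling of the libraries can move these differences. Over all rows the medians were 0.18 in 52 same-strand and 0.30 in 15 opposite-strand pairs. Pearson's r between the deviations of neighbours was 0.72 and 0.80 there, and 0.81 and 0.51 with protein-coding genes alone. The psaI gene deviated by 0.40 while ycf4 behind it deviated by -1.03. For psaJ the value was 0.58, against -0.50 for rpl33. Along the ATP synthase cluster atpI was at -0.04 and atpA at -1.12, and in the NDH cluster psaC was at 0.24 and ndhH at -1.22. With TMM factors the same 8 genes were at 0.91, -0.51, 1.09, 0.01, 0.48, -0.60, 0.76 and -0.70 in that order. TMM factors shift all genes of a library alike, so differences between genes are the same under either scaling, while the sign of rpl33 and atpI turned.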

How the data were processed

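RNA was counted per plastid gene in 3 leaf libraries with P19 alone. The authors deposited raw counts of reads per gene row, not normalized, with Start, End, Strand and Length of each row. Per the submitters' processing notes, the tools included featureCounts 2.0.1, HISAT2 2.2.1, DESeq2 1.42.0, Trim Galore 0.6.10 and FastQC 0.12.1. Genome build, strandedness and handling of shared reads were not given in the sources used here. Length equals End minus Start plus 1 in all rows, so introns count in it.

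RPKM were computed from the counts, row length and the plastid total without the editor transgene row. Means carry the SD over 3 libraries. Neighbours are adjacent rows, rps12 left out, at most 500 bases apart. Genes were named as the 10 highest and 10 lowest protein-coding genes, list extremes, cluster members and the most and least variable genes. The members and lists were chosen with earlier results of these data known. Each pair of libraries differed by far more than sampling noise (chi-square over its degrees of freedom, 3981 to 21246). Alternatives were other totals, lengths, gaps, count filters, edgeR 4.0.16 TMM and DESeq2 1.42.0 factors, and leaving out each library. Calculations used Python 3.11.15 and R 4.3.3 and were tested on simulated counts. Some results are not reported here.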

Additional observations from a re-analysis of the deposited data

Results flagged for a closer look

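Reads on the row of the editor transgene were present in P19 libraries, which received no editor. There were 11 in replicate 2, 4 in replicate 3 and 0 in replicate 1. They were flagged against a limit of 3, the 95% upper bound of the expected count where 0 is observed. That bound does not limit what a library without the transgene may show, and the 4 reads are close to it.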

How the results depend on the processing

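No paired analysis was possible because 1 group was described and no test was made. The psbA share of 53.7% was 60.7% with the rps12 and trnK rows left out of the total. The photosynthesis share of 82.7% was 93.7% without those rows and 63.0% of the rest without psbA. Same-strand neighbours had a median of 1.57-fold and 69.2% within 2-fold at gaps of at most 250 bases, 1.84-fold at gaps of at most 1000, 1.56-fold on the overlap scale, and 1.62-fold and 67.6% with protein-coding genes alone. For opposite strands the values were 2.78-fold and 44.4% at 250 bases and 2.70-fold on the overlap scale. Genes over 2-fold between libraries numbered 43 by plastid total, 26 with TMM factors, 27 with DESeq2 size factors, 27 with psbA left out of the total and 18 of the 67 with at least 10000 counts in every library. The cause of these shifts was not tested. Without 1 library, opposite-strand pairs within 2-fold ran from 20% to 33.3%, the median of highest over lowest from 1.21 to 1.61 and the genes over 2-fold from 5 to 40. With a library left out, psbA took 49.9% to 56.9% and photosynthesis genes 80.7% to 84.6%. The overlap scale moved the RPKM of 51 of 105 genes by more than their SD. Alternatives with 20 bases of overlap, genes of at least 200 bases and the tRNA list without trnA and trnK and the per-complex counts under other scalings were added after seeing the data. Counting error limits only rrn5, rrn4.5 and the 4 tRNAs with under 1000 counts in a library.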

Other observations

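Several genes outside the clusters had intermediate levels. The intron-containing ribosomal protein gene rps16 had 1385, 3532 and 2161 RPKM and ccsA, for a protein of cytochrome assembly, 1465, 1972 and 1459 RPKM in replicates 1 to 3. The ribosomal protein gene rps15 had 343, 695 and 561 RPKM and rps4 823, 1420 and 1091 RPKM. By plastid total the glutamate, tyrosine and aspartate tRNAs of the trnE cluster were among the steadier tRNAs. Levels were 4604, 4862 and 5354 RPKM for trnY and 2568, 2239 and 2819 RPKM for trnE. With TMM factors the highest library exceeded the lowest 1.76 times for trnE, 1.45 times for trnY and 1.47 times for trnD. Each of these was above the tRNA median under that scaling, so their steadiness depended on the scaling.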
